A study of Mus musculus with 8 samples.

Results

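Histone lysine methyltransferases, lysine demethylases and the core subunits of the COMPASS and PRC2 complexes were followed together with PTIP, the product of Paxip1, in mouse bone marrow-derived macrophages. The 53 genes were chosen by function, from a list of symbols, among 55226 listed genes, of which 26727 stood at 0 in every library. Of the 53 genes, 52 had a mean level high enough to enter the fit of 11543 genes. Suv39h2, an H3K9 methyltransferase of the testis and embryo, did not, with values of 0.78 to 1.37 over the 8 libraries. The 4 groups were cKO cells given LPS for 6 h, cKO cells at 0 h, WT cells given LPS for 6 h and WT cells at 0 h, with 2 libraries each. Genotypes are labelled PtipcKO and PtipWT, all on the C57BL/6 strain. Femoral marrow from both was grown into macrophages for 7 days with 10 ng/ml of M-CSF and 10% serum, and LPS, a bacterial cell wall component, was given at 100 ng/ml. The driver of the deletion, the deleted exons and the age of the mice are not given in the labels, nor whether libraries with the same number came from the same mouse. The p-values below therefore measure the spread between these libraries.

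Values are rlog, a log2 scale that DESeq2 computes and that pulls low genes towards their mean, so differences of low genes are understated. Depth is unknown. Differences are cKO minus WT or LPS minus 0 h in log2 units, with the standard error (SE) from one limma fit over all tested genes, and a gene is said to rise or fall when its adjusted p over those genes is under 0.05. Every library had the macrophage markers high (Lyz2 at 18.1 to 19.3, Cd68 at 14.4 to 14.8), while Cd3e, Ly6g, Pax5 and Hba-a2, which mark T cells, neutrophils, B cells and erythroid cells, lay below -1.9. S100a8, of neutrophils and monocytes, reached 8.35 in 1 library. The whole marker lists were less uniform than these single genes. Of the neutrophil markers 2 of 8 entered the fit (S100a8 and Camp), of the dendritic cell markers 3 of 6. Of the B cell markers 1 of 5 did (Cd79b), and of the mast cell and basophil markers 3 of 5. Of 6 T and NK cell, 5 stromal and 5 erythroid markers, 0 did. Xist lay below -1.9 and the Y-linked Ddx3y above 8.6 in each of the 8 libraries. In bulk RNA, fewer cells of a type and less RNA per cell cannot be told apart.

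PTIP carries BRCT domains and joins the KMT2C and KMT2D complexes, which place H3K4 monomethylation at enhancers. COMPASS complexes share a core of WDR5, ASH2L, RBBP5 and DPY30 around one of the KMT2 or SETD1 enzymes, and H3K4 trimethylation at promoters depends mainly on SETD1 and KMT2B. Methylation of H3K9 and H3K27 goes with silencing, that of H3K36 and H3K79 with transcribed bodies, and the LSD and JmjC families take these marks off again. In macrophages, enzymes of these families are known to take part in the switching of inflammatory genes.

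Start site windows of 250 bases before to 50 after the RefSeq start (GRCm38.p6) were found for 41 of the 53 genes, with 56 windows in all. The windows of the gene removed in the cKO and of the pair of members that moved most with LPS are shown, to let their base composition be compared. Capitals mark every hit, on either strand, of 12 motifs searched, among them the NRF1 site (GCGC and GCGC with any 2 bases between), the GC box GGGCGG, the CCAAT box CCAAT and the AP-1 site TGANTCA. No marked hit overlapped another.
Paxip1, chr5:27791501-27791800, minus strand: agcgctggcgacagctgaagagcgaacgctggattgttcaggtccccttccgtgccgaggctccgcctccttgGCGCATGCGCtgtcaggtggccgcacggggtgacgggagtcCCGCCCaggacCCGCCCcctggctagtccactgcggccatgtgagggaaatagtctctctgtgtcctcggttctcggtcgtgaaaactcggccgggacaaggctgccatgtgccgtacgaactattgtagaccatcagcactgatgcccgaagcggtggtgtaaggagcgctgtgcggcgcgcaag
Kdm4a, chr4:118179994-118180293, minus strand: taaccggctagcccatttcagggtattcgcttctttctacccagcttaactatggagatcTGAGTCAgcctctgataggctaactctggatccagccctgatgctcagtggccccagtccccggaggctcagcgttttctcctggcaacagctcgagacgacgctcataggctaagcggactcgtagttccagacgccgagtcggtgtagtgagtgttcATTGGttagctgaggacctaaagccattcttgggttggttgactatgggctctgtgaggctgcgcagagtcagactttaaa
Setdb2, chr14:59440831-59441130, minus strand: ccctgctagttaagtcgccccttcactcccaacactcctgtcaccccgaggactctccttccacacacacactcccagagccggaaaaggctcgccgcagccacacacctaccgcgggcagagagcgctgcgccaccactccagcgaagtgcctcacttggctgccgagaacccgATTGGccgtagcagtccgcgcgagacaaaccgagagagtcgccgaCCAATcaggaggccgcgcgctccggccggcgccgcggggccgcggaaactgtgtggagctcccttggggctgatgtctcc
The Paxip1 window held 28 CpG, an NRF1 site and 2 GC boxes, the Kdm4a window 13 CpG, an AP-1 site and a CCAAT box, and the Setdb2 window 29 CpG and 2 CCAAT boxes. Over the 56 windows of the histone methylation genes the median was 28 CpG, against 20 in the 10982 windows of all tested genes. The NRF1 site was in 28.6% of the members' windows, against 13.6% of the tested genes' windows and 6.23% of all 32851 windows. GC boxes were in 66.1%, against 62.0% of the tested genes' windows, CCAAT boxes in 37.5% against 37.7%, and AP-1 sites in 7.14% against 5.39%. The TATA box TATAAA was in 1.79%, against 7.28%. The NF-kB site, searched by its usual degenerate consensus, was in 7.14%, against 10.4%, and the interferon-stimulated response element core (TTTC and TTTC with any 2 bases between) was in 0 of 56 windows, against 3.49% of the tested genes' windows. The other 5 motifs were the ETS core CCGGAAG in 8.93%, against 19.0%, the E-box CACGTG in 7.14%, against 10.4%, the CRE (TGAC followed by GTCA) in 5.36%, against 3.14%, the GAS element (TTC and GAA with any 3 bases between) in 7.14%, against 6.90%, and an IRF-ETS composite core (GGAA and GAAA with any 2 bases between) in 3.57%, against 2.55% of the tested genes' windows. These are matches of letters in short windows, several windows can belong to 1 gene, and no binding was measured.

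Paxip1 (ENSMUSG00000002221.11, chr5:27740080-27791691, minus strand) was lower in cKO than in WT macrophages at both times. Its rlog was 2.54 and 2.63 in cKO after LPS (replicate 1, then replicate 2, here and below), against 3.82 and 4.08 in WT after LPS. At 0 h it was 2.54 and 2.48 in cKO, against 4.50 and 4.50 in WT. All 4 cKO libraries lay below all 4 WT libraries. The difference was -1.36 after LPS (SE 0.18, adjusted p = 0.0156) and -1.99 at 0 h (SE 0.18, adjusted p = 0.00686). In WT cells Paxip1 also fell with LPS, by 0.55 (SE 0.18, adjusted p = 0.039), and in cKO cells the difference was 0.07 (SE 0.18). That call in WT was lost in 11 of 16 other settings of the analysis. The interaction of 0.62 (SE 0.26) had an adjusted p of 0.751. The call at 0 h ended without WT 0 h replicate 1 (adjusted p = 0.0732) and without cKO 0 h replicate 2 (adjusted p = 0.0625), and that after LPS ended without WT LPS replicate 1 (adjusted p = 0.0642), cKO LPS replicate 1 (adjusted p = 0.1) or cKO LPS replicate 2 (adjusted p = 0.15), at differences of the same sign. The log2 fold change of Paxip1 in the authors' deposited table was -4.04 after LPS (unadjusted p = 0.004, adjusted p listed as 1) and -4.75 at 0 h (adjusted p = 0.00196), a larger size than on the rlog scale. For LPS in WT it was -0.83 there, not called (adjusted p = 0.404).

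Beyond Paxip1, no histone methylation gene passed the threshold between the genotypes. Called genes numbered 1 of 52 after LPS, where 3.97% of all tested genes were called, 1 of 52 at 0 h, where 0.251% were, and 1 of 52 in the average over both times, where 7.02% were. Each time the call was Paxip1. An unadjusted p under 0.05 was reached by 6 of 52 after LPS, against 21.5% of all tested genes, and by 5 of 52 at 0 h, against 10.9%. The median absolute difference was 0.20 after LPS and 0.17 at 0 h, against 0.23 and 0.16 over all tested genes. Without Paxip1 the differences of the other 51 ran from -0.63 to 0.66 after LPS and from -0.94 to 0.67 at 0 h, with a median SE of 0.18 over the 52 genes, so that small changes were not detectable with 2 libraries a group.

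After LPS the smallest p-values behind Paxip1 belonged to Kmt2c, Setdb2, Wdr5 and Kdm7a, none called. Since they were picked by those p-values, a separation of their pairs after LPS is no further support. Kmt2c, the H3K4 methyltransferase MLL3 that PTIP accompanies, had 6.65 and 6.32 in cKO after LPS, against 6.95 and 7.23 in WT after LPS. At 0 h it had 6.89 and 6.86 in cKO, against 6.57 and 6.73 in WT. The cKO libraries were thus the lower pair after LPS and the higher pair at 0 h, without overlap at either time. Its difference after LPS was -0.60 (SE 0.18, adjusted p = 0.0936), and its interaction of -0.83 (SE 0.25, adjusted p = 0.688) was the one with the smallest p among the 52 genes. Kmt2d (MLL4), its close relative and the enzyme of the KMT2D complex, differed by 0.03 after LPS and by -0.13 at 0 h.

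Wdr5, the WD40 core subunit that holds COMPASS together, had 7.56 and 7.60 in cKO after LPS, against 7.22 and 7.01 in WT after LPS. At 0 h its values were 7.47 and 7.34 in cKO, against 7.48 and 7.40 in WT. The groups stood apart after LPS and overlapped at 0 h, and the difference after LPS was 0.46 (SE 0.14, adjusted p = 0.105). Rbbp5, which binds WDR5 in the same core, had a difference of -0.36 after LPS (SE 0.15, adjusted p = 0.213), opposite in sign to that of Wdr5. Setdb2, an H3K9 methyltransferase, differed by -0.63 after LPS (SE 0.19, adjusted p = 0.098), and Kdm7a, a demethylase of H3K9 and H3K27, by -0.46 (SE 0.17, adjusted p = 0.158). A fit of the 4 LPS libraries alone put Setdb2 past the threshold (adjusted p = 0.0456).

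At 0 h the 4 genes after Paxip1 were Kdm3b, Kmt2b, Kdm4b and Ezh1, again none called. Kmt2b (MLL2), a promoter H3K4 methyltransferase, had 5.11 and 5.10 in cKO at 0 h, against 4.65 and 4.57 in WT at 0 h, a difference of 0.49 (SE 0.19, adjusted p = 0.409). Kdm4b, a demethylase of H3K9 trimethylation, had 5.25 and 5.71 in cKO, against 4.81 and 5.10 in WT, a difference of 0.52 (SE 0.22, adjusted p = 0.439). Kdm3b differed by 0.40 (SE 0.15, adjusted p = 0.391) and Ezh1, a catalytic subunit of PRC2, by -0.32 (SE 0.14, adjusted p = 0.449). In all 4 genes the cKO and WT pairs at 0 h did not overlap. The genes were picked by their p-values at 0 h, so this separation is no further support. Its share over all tested genes was not counted. After LPS, Kdm4b differed by 0.48 and Kmt2b by 0.13, both in the direction of 0 h, while the means of Kdm3b were 7.03 in cKO and 7.03 in WT.

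Markers outside the histone methylation genes moved between the genotypes. The mean rlog of 8 macrophage markers was 13.0 and 13.0 in cKO after LPS, against 13.7 and 13.5 in WT after LPS, and 12.4 and 12.5 in cKO at 0 h, against 13.0 and 12.9 in WT at 0 h. Of these 8, Itgam and Mertk fell in cKO after LPS and 0 passed at 0 h. Immediate early genes averaged 8.13 and 8.10 in cKO after LPS, against 9.35 and 8.66 in WT after LPS, and 8.66 and 8.42 in cKO at 0 h, against 9.95 and 9.21 in WT at 0 h. All 10 LPS indicator genes had lower means in cKO at both times. Their mean rlog was 12.70 and 12.70 in cKO after LPS, against 13.87 and 13.73 in WT after LPS, where Ptgs2, Il6 and Il1b fell, and 7.93 and 8.16 in cKO at 0 h, against 9.60 and 8.37 in WT at 0 h, where 0 passed. Of 15 tested immediate early genes, Jun (-2.22) and Dusp1 (-1.71) were called lower in cKO at 0 h, and Dusp1 (-1.51) after LPS. Of 2 tested neutrophil markers, S100a8 was called higher in cKO in the average over times, at 0.96 (SE 0.15, adjusted p = 0.0102), and 0 passed after LPS or at 0 h alone. That average also called 4 of 8 macrophage markers and 5 of 10 LPS indicator genes lower. Of the immediate early genes it called 8 lower and 1 higher, against 7.02% of all tested genes in either direction. The part of these markers in the differences above was not tested. The mean of the 53 histone methylation genes was 6.79 and 6.83 in cKO after LPS, against 6.84 and 6.94 in WT after LPS, and 6.66 and 6.74 in cKO at 0 h, against 6.72 and 6.71 in WT at 0 h.

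**Figure D1:**
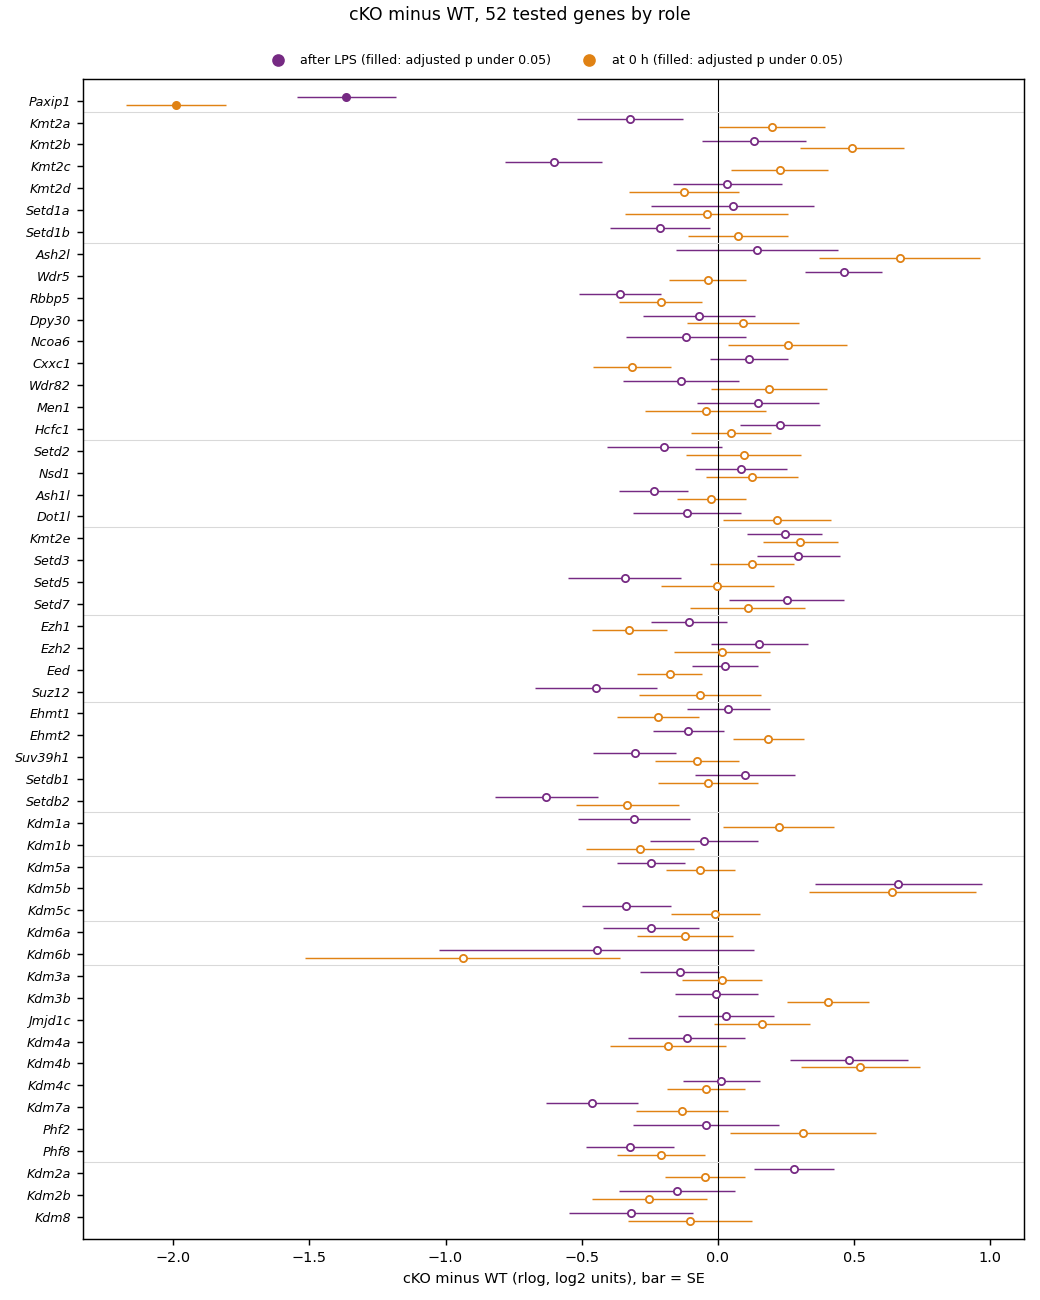
Difference between cKO and WT macrophages (x axis, log2 units on the rlog scale) for the 52 tested genes in order of role, after LPS and at 0 h, with bars of 1 SE and filled points for genes past an adjusted p of 0.05. Paxip1 is the only filled gene, at -1.36 after LPS and -1.99 at 0 h, and the other genes lie between -0.94 and 0.67.

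With LPS, most of the histone methylation genes did not pass the threshold in either genotype. In cKO macrophages 6 of 52 were called, 5 higher and 1 lower, against 37% of all tested genes (19.6% higher, 17.5% lower). In WT macrophages 16 of 52 were called, 11 higher and 5 lower, against 42.2% of all tested genes (22.5% higher, 19.7% lower). Both shares, 11.5% and 30.8%, were under those of all tested genes. Counts by role group below are of few genes and are to be read beside the 37% and 42.2%. The median absolute difference was 0.20 in cKO and 0.35 in WT, against 0.41 and 0.46 over all tested genes. In the average over genotypes 17 of 52 were called, 12 higher and 5 lower, against 54% of all tested genes (27.3% higher, 26.6% lower). Apart from Kdm6b, the histone methylation genes given below with values by library were picked by a call in these LPS contrasts. A separation of their LPS libraries from those at 0 h is thus no further support, and its share over all tested genes was not counted.

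The calls in cKO were Kdm4a, Setdb2, Ehmt2, Kdm3b and Cxxc1, which rose, and Dpy30, which fell. In WT, Kdm4a, Setdb2, Ehmt2, Kdm1a, Kdm3b, Kmt2a, Dot1l, Suz12, Kdm5c, Setd5 and Setd1b rose, and Dpy30, Ehmt1, Setdb1, Hcfc1 and Paxip1 fell. The genotypes had 5 calls in common, in the same direction, which is 83.3% of the calls in cKO and 31.25% of those in WT. Over all tested genes the shared calls were 82.4% of those in cKO and 72.3% of those in WT. The sign was the same in both genotypes in 36 of the 52 genes (69.2%), against 83.3% of all tested genes. That the response differs between the genotypes is not shown by these counts: the interaction called 0 of 52 genes and 0% of all tested genes with limma, and 3 of 52 had an unadjusted p under 0.05 (Kmt2c, Wdr5 and Paxip1), against 6.51% of all tested genes. The count in cKO was 3 without cKO LPS replicate 2. In WT, leaving out replicate 1 at 0 h left 8 calls, and leaving out replicate 2 at 0 h left 10. Among the libraries at 0 h, WT replicate 1 had the highest mean of 10 LPS indicator genes, 9.60, against 8.37 in WT replicate 2 and 7.93 and 8.16 in cKO.

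**Figure D2:**
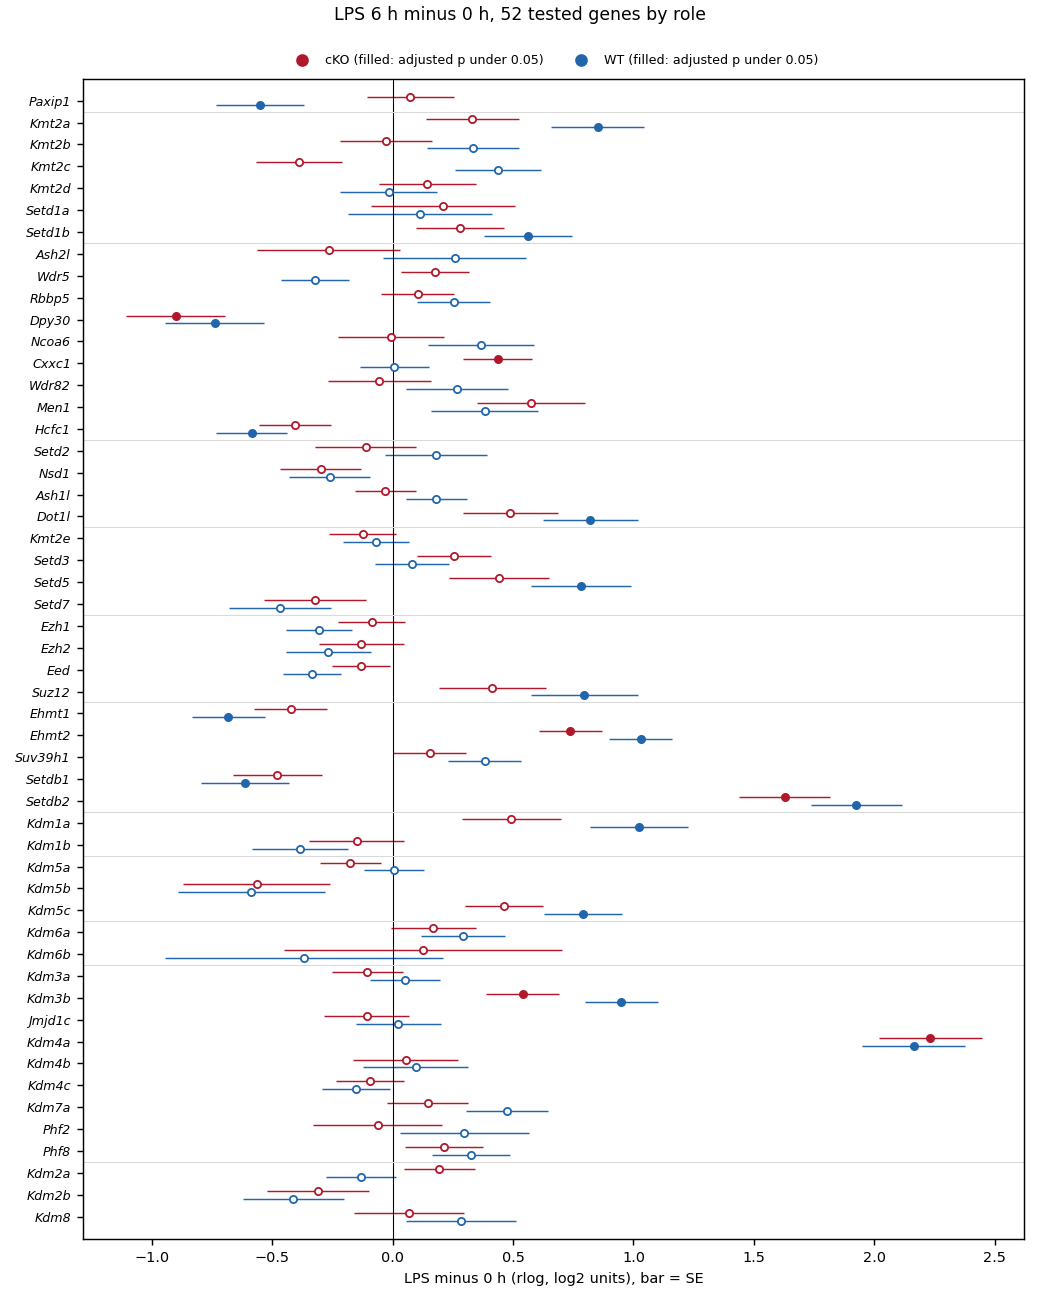
Difference between LPS and 0 h (x axis, log2 units on the rlog scale) for the 52 tested genes in order of role, in cKO and in WT macrophages, with bars of 1 SE and filled points for genes past an adjusted p of 0.05. Kdm4a and Setdb2 lie farthest to the right in both genotypes, at 1.63 to 2.23, and Dpy30 farthest to the left.

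Among the 6 H3K4 methyltransferases, 0 passed in cKO and 2 rose in WT. Kmt2a (MLL1), which acts at developmental and stem cell genes, had 6.70 and 7.05 in cKO after LPS, against 6.42 and 6.68 at 0 h, and 7.22 and 7.19 in WT after LPS, against 6.18 and 6.53 at 0 h. The LPS pair was the higher one in each genotype. Kmt2a rose by 0.85 in WT (SE 0.19, adjusted p = 0.00799), and its difference in cKO was 0.33 (SE 0.19). Setd1b, a catalytic subunit of a trimethylating complex, had 6.10 and 6.34 in cKO after LPS, against 5.94 and 5.94 at 0 h, and 6.29 and 6.57 in WT after LPS, against 5.76 and 5.98 at 0 h. It rose in WT by 0.56 (SE 0.18, adjusted p = 0.0364), with 0.28 in cKO. Kmt2c had a difference of -0.39 in cKO (SE 0.18, adjusted p = 0.12) and 0.44 in WT (SE 0.18), and Kmt2d had 0.14 and -0.02. Setd1a had 0.21 and 0.11, and 51.8% of its exonic bases also belong to the annotated gene Gm49388 on the same strand, so its value is uncertain.

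Of 9 subunits that accompany these enzymes, 2 passed in each genotype, and Dpy30 fell in both. Dpy30, a small core subunit that binds ASH2L, had 7.33 and 6.92 in cKO after LPS, against 8.08 and 7.97 at 0 h, and 7.46 and 6.93 in WT after LPS, against 7.95 and 7.92 at 0 h. Every LPS library lay below every library at 0 h. It fell by 0.90 in cKO (SE 0.21, adjusted p = 0.00965) and by 0.74 in WT (SE 0.21, adjusted p = 0.0196). Hcfc1, the host cell factor of SETD1 and KMT2A complexes, had 7.07 and 6.90 in cKO after LPS, against 7.41 and 7.37 at 0 h, and 6.65 and 6.87 in WT after LPS, against 7.35 and 7.34 at 0 h. Again all LPS libraries were lower than all others, and Hcfc1 fell in WT by 0.59 (SE 0.15, adjusted p = 0.013), with -0.41 in cKO (SE 0.15, adjusted p = 0.0615).

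Cxxc1 and Men1 ran the other way. Cxxc1, the CpG-binding subunit of SETD1 complexes, had 8.70 and 8.72 in cKO after LPS, against 8.42 and 8.13 at 0 h, and 8.69 and 8.50 in WT after LPS, against 8.63 and 8.55 at 0 h. The pairs separated in cKO and overlapped in WT, and Cxxc1 rose in cKO by 0.44 (SE 0.14, adjusted p = 0.042), with 0.01 in WT. Men1, the menin gene whose product brings KMT2A and KMT2B to their targets, had 8.78 and 8.44 in cKO after LPS, against 8.29 and 7.79 at 0 h, and 8.71 and 8.22 in WT after LPS, against 8.13 and 8.04 at 0 h. It passed only in the average over genotypes, at 0.48 (SE 0.16, adjusted p = 0.0309). The core genes Ash2l, Wdr5 and Rbbp5 had differences of -0.27, 0.18 and 0.10 in cKO and of 0.26, -0.32 and 0.25 in WT, and 0 of these 3 passed.

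H3K79 and H3K36 methyltransferases gave 1 call in WT among 4 genes and 0 in cKO. That was Dot1l, the H3K79 methyltransferase, which has no SET domain. Its values were 6.95 and 6.77 in cKO after LPS, against 6.48 and 6.26 at 0 h, and 6.75 and 7.20 in WT after LPS, against 6.07 and 6.24 at 0 h. All LPS libraries lay above all libraries at 0 h, and Dot1l rose in WT by 0.82 (SE 0.20, adjusted p = 0.0104), with 0.49 in cKO (SE 0.20, adjusted p = 0.0842). Setd2, Nsd1 and Ash1l, which methylate H3K36, had differences between -0.30 and 0.18 in both genotypes. Of 4 other SET domain genes, Setd5, whose own activity on histones is disputed, had 8.34 and 8.20 in cKO after LPS, against 8.04 and 7.62 at 0 h, and 8.86 and 8.37 in WT after LPS, against 7.71 and 7.95 at 0 h. LPS libraries were the higher ones throughout, and Setd5 rose in WT by 0.78 (SE 0.21, adjusted p = 0.0161), with 0.44 in cKO.

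In PRC2, the H3K27 methyltransferase complex, 1 of 4 genes passed in WT and 0 in cKO. Suz12, a core subunit, had 6.40 and 6.12 in cKO after LPS, against 5.63 and 6.06 at 0 h, and 6.61 and 6.80 in WT after LPS, against 6.11 and 5.71 at 0 h. Within each genotype the LPS pair was higher, and Suz12 rose in WT by 0.80 (SE 0.22, adjusted p = 0.0201), with 0.41 in cKO. Eed, the subunit that reads H3K27 trimethylation, had 8.51 and 8.45 in cKO after LPS, against 8.53 and 8.69 at 0 h, and 8.45 and 8.46 in WT after LPS, against 8.77 and 8.81 at 0 h. Its values were lower with LPS in both genotypes, by a margin of hundredths of a unit in cKO, and Eed passed only in the average, at -0.23 (SE 0.09, adjusted p = 0.0463). The catalytic subunit genes Ezh1 and Ezh2 had -0.09 and -0.13 in cKO and -0.31 and -0.27 in WT, not called.

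Of 5 tested H3K9 methyltransferases, 2 passed in cKO and 4 in WT, against 37% and 42.2% of all tested genes. Related genes went in opposite directions, with 2 higher and 2 lower in WT. Setdb2 (chr14:59402009-59440884, minus strand), known in mouse macrophages as an interferon-induced gene, had 8.84 and 8.82 in cKO after LPS, against 7.10 and 7.31 at 0 h, and 9.52 and 9.40 in WT after LPS, against 7.82 and 7.25 at 0 h. Its LPS libraries were all far above those at 0 h, and it rose by 1.63 in cKO (SE 0.19, adjusted p = 0.000334) and by 1.93 in WT (SE 0.19, adjusted p = 0.000108). Setdb1, which trimethylates H3K9 at repeats, fell in WT by 0.61 (SE 0.18, adjusted p = 0.0264), with -0.48 in cKO (adjusted p = 0.0726).

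Ehmt2 (G9a) and Ehmt1 (GLP) encode a heterodimer that dimethylates H3K9. Ehmt2 (chr17:34898469-34914052, plus strand) had 8.58 and 8.75 in cKO after LPS, against 7.91 and 7.94 at 0 h, and 8.84 and 8.71 in WT after LPS, against 7.68 and 7.81 at 0 h. Ehmt1 had 6.79 and 7.07 in cKO after LPS, against 7.37 and 7.34 at 0 h, and 6.86 and 6.93 in WT after LPS, against 7.63 and 7.52 at 0 h. Without overlap in either gene, every LPS library was above those at 0 h for Ehmt2 and below them for Ehmt1. Ehmt2 rose by 0.74 in cKO (SE 0.13, adjusted p = 0.00278) and by 1.03 in WT (SE 0.13, adjusted p = 0.000385). Ehmt1 fell in WT by 0.68 (SE 0.15, adjusted p = 0.00706), with -0.42 in cKO (SE 0.15, adjusted p = 0.057). Suv39h1, a trimethylase of H3K9 at heterochromatin, had 0.15 in cKO and 0.38 in WT, not called, and 14.6% of its exonic bases lie under the antisense gene Gm14820.

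**Figure D3:**
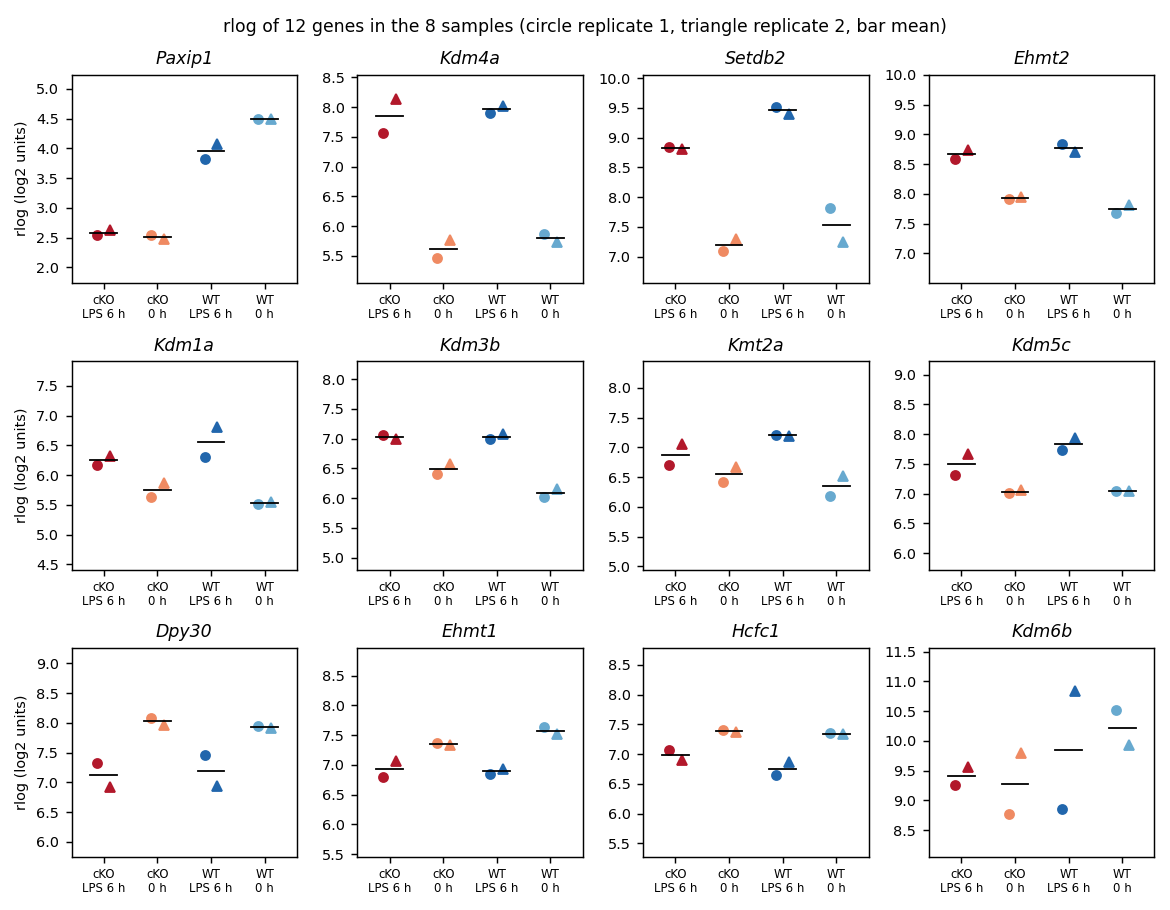
rlog (y axis, log2 units, each panel on its own range) of 12 genes in the 8 libraries by group, with a circle for replicate 1, a triangle for replicate 2 and a bar for the group mean. Paxip1 is low in all cKO libraries, Kdm4a, Setdb2 and Ehmt2 stand higher after LPS in both genotypes, and the WT LPS pair of Kdm6b, at 8.86 and 10.8, lies as far apart as nearly the whole range of that gene.

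Among demethylases of H3K4, Kdm1a and Kdm5c rose in WT and 0 of the 5 genes of the LSD and KDM5 families passed in cKO. Kdm1a (LSD1), which takes off mono- and dimethyl groups, had 6.17 and 6.32 in cKO after LPS, against 5.64 and 5.87 at 0 h, and 6.31 and 6.80 in WT after LPS, against 5.52 and 5.55 at 0 h. The X-linked Kdm5c, which acts on trimethylated H3K4, had 7.32 and 7.68 in cKO after LPS, against 7.01 and 7.06 at 0 h, and 7.73 and 7.94 in WT after LPS, against 7.04 and 7.05 at 0 h. In both genes all LPS libraries lay above all libraries at 0 h. Kdm1a rose in WT by 1.02 (SE 0.21, adjusted p = 0.00431), with 0.49 in cKO (SE 0.21), and Kdm5c rose in WT by 0.79 (SE 0.16, adjusted p = 0.00499), with 0.46 in cKO (SE 0.16, adjusted p = 0.0545). Kdm5b, of the same family, had -0.57 in cKO and -0.59 in WT, not called, with an SE of 0.31. The Y-linked paralog of Kdm5c, Kdm5d, was present at 4.93 to 5.65, and how reads common to such paralogs were assigned is not given in the sources used here.

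Of the 9 JmjC demethylases of H3K9, Kdm4a and Kdm3b rose in both genotypes and the other 7 passed in neither. Kdm4a (chr4:118136957-118180043, minus strand), which acts on trimethylated H3K9 and H3K36, had 7.56 and 8.14 in cKO after LPS, against 5.46 and 5.77 at 0 h, and 7.91 and 8.02 in WT after LPS, against 5.86 and 5.74 at 0 h. Its LPS libraries exceeded the others without overlap, and it rose by 2.23 in cKO (SE 0.21, adjusted p = 0.000129) and by 2.16 in WT (SE 0.21, adjusted p = 0.00011). Its relatives Kdm4b and Kdm4c had 0.05 and -0.10 in cKO and 0.10 and -0.15 in WT. Kdm3b, which acts on mono- and dimethylated H3K9, had 7.07 and 6.99 in cKO after LPS, against 6.41 and 6.57 at 0 h, and 6.99 and 7.08 in WT after LPS, against 6.02 and 6.15 at 0 h. It rose by 0.54 in cKO (SE 0.15, adjusted p = 0.0231) and by 0.95 in WT (SE 0.15, adjusted p = 0.00135), again without overlap. Of its exonic bases, 24.6% lie under Gm26538 on the opposite strand, and strand use in counting is not given in the sources used here.

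Of the H3K27 demethylases, Kdm6a and Kdm6b, 0 passed. Kdm6b (JMJD3, chosen for its spread after its values were seen), known as an LPS-responsive gene of macrophages, had 9.25 and 9.56 in cKO after LPS, against 8.77 and 9.80 at 0 h, and 8.86 and 10.8 in WT after LPS, against 10.5 and 9.93 at 0 h. The groups overlapped within each genotype, and its SD within groups, 0.82, was the largest of the 53 genes. Its difference was 0.12 in cKO and -0.37 in WT (SE 0.58 each). Without WT LPS replicate 1 the WT difference was 0.62, and without WT LPS replicate 2 it was -1.36 (adjusted p = 0.0353), with the remaining library assumed to vary like those of the other groups. Kdm6a (UTX), an X-linked partner of the KMT2C and KMT2D complexes, had 0.17 in cKO and 0.29 in WT, and its Y-linked paralog Uty stood at 7.50 to 8.04. Kdm2a, Kdm2b and Kdm8, grouped here as H3K36 JmjC demethylase genes, gave 0 calls in either genotype.

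Calls differed in whether they held when each of the 8 libraries was left out in turn, always at the same sign. Each such run leaves a group with 1 library, whose spread is taken from the other groups. In cKO the rises of Kdm4a, Setdb2 and Ehmt2 stayed past the threshold each time. Dpy30 and Kdm3b lost it without cKO 0 h replicate 1 or cKO LPS replicate 2, Kdm3b also without cKO LPS replicate 1, and Cxxc1 without any 1 of 5 libraries, among them both of WT at 0 h. In WT the rises of Kdm4a, Setdb2, Ehmt2, Kdm3b, Kdm1a and Kdm5c and the fall of Ehmt1 stayed each time. Without WT 0 h replicate 1, Kmt2a, Setd1b, Dot1l, Setd5, Dpy30, Hcfc1, Setdb1 and Paxip1 lost the call, and without WT 0 h replicate 2, Setd1b, Suz12, Dpy30, Hcfc1, Setdb1 and Paxip1 did. Setd5, Hcfc1, Setdb1 and Paxip1 also lost it without WT LPS replicate 1, and Setd1b, Dot1l, Suz12, Dpy30 and Setdb1 without WT LPS replicate 2. Paxip1 lost it further without any of the 4 cKO libraries, and Setd1b without either cKO library at 0 h. In the average over genotypes Eed lost it in 7 of the 8 runs, and Men1 and Setd1b in 5 each.

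The authors' deposited table, on a fold change scale without this shrinkage, called fewer of the histone methylation genes. It called 3 higher and 1 lower with LPS in cKO, against 27.4% of the genes tested here, and 8 higher and 0 lower in WT, against 28.2%. These were Kdm4a, Setdb2 and Ehmt2 (higher) and Dpy30 (lower) in cKO, and Kdm4a, Setdb2, Kdm1a, Ehmt2, Kdm3b, Kmt2a, Kdm5c and Setd5 in WT. In the authors' deposited table the log2 fold change of Kdm4a was 2.70 in cKO and 2.53 in WT, and that of Setdb2 1.85 and 2.10. Between genotypes the authors' deposited table called 0 after LPS, against 5.59% of the genes tested here, and only Paxip1 at 0 h, against 1.52%. The count of 0 after LPS has a limit, since the authors' deposited table lists an adjusted p of 1 there for 11606 genes whose unadjusted p is smaller than that of some gene with an adjusted p under 1, Paxip1 and Suv39h2 among them.

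Levels can be compared between genes only per length. On the scale of the mean rlog minus log2 of the exonic length in kb (GENCODE M21), the median of the 52 genes was 3.85 in cKO after LPS, 3.69 in cKO at 0 h, 3.84 in WT after LPS and 3.62 in WT at 0 h. Dpy30 had the highest level in cKO after LPS (6.93), in cKO at 0 h (7.83) and in WT at 0 h (7.74), and Setdb2 in WT after LPS (7.44), where Dpy30 was at 7.00. At the other end Paxip1 had -0.77 in cKO after LPS, -0.85 in cKO at 0 h, 0.59 in WT after LPS and 1.14 in WT at 0 h. Kmt2d lay near 6 in every group and Kmt2c, Kmt2b and Setd1a between 1.35 and 2.75. Kdm4a stood at 5.32 in cKO after LPS, against 3.08 in cKO at 0 h, and at 5.43 in WT after LPS, against 3.27 in WT at 0 h. The per-length level assumes that all annotated exons were transcribed, and it inherits the shrinkage of rlog.

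**Figure D4:**
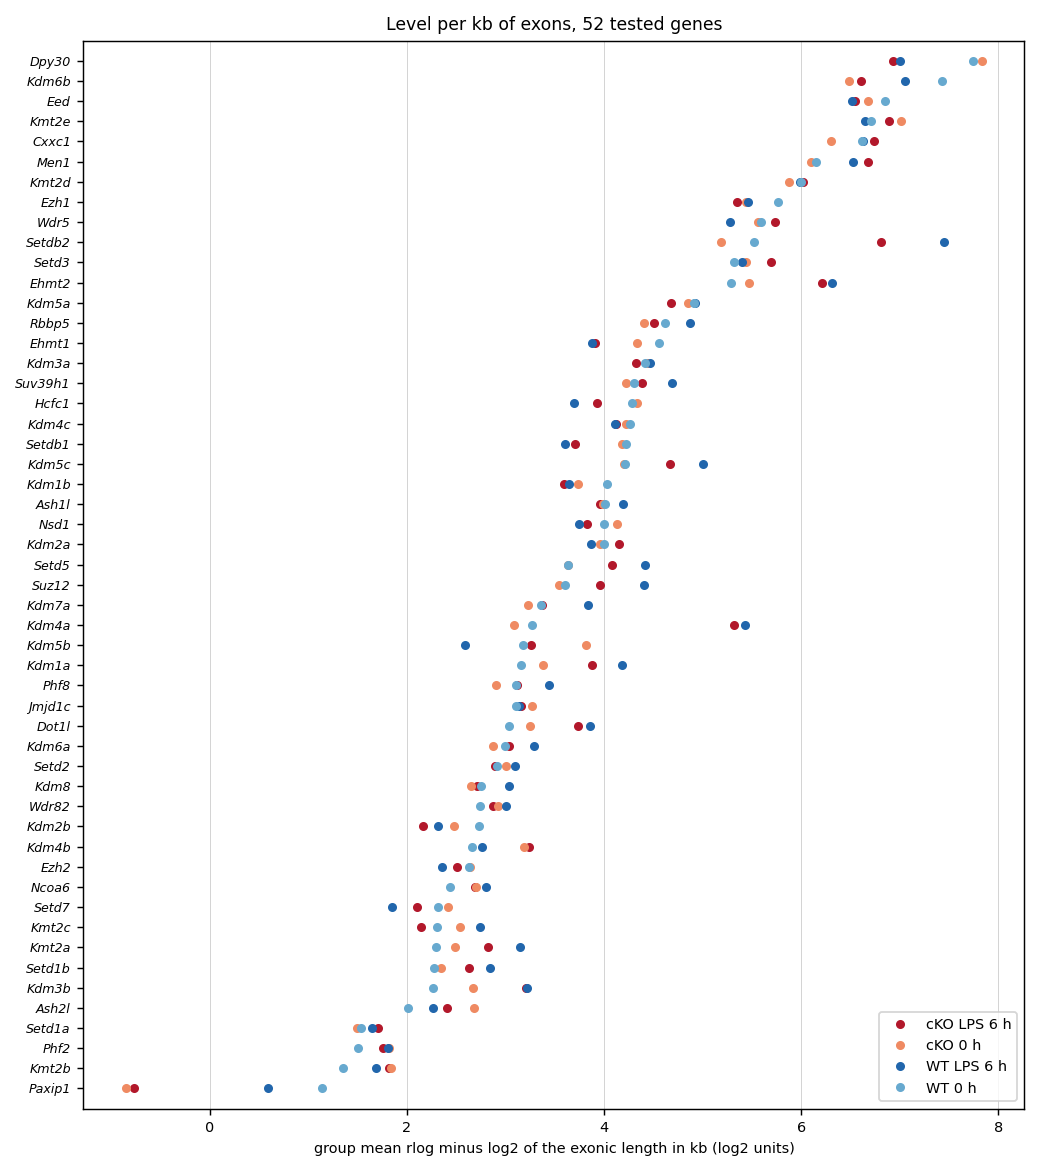
Level per kb of exons (x axis, group mean rlog minus log2 of the exonic length in kb) of the 52 tested genes, sorted by the mean in WT macrophages at 0 h, with 1 point for each of the 4 groups. Kdm4a and Setdb2 lie more than 1 unit to the right after LPS, and Paxip1 lies lowest, with both cKO points below 0.

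Genes close to these complexes but outside the 53 were counted the same way, against 19.6% higher and 17.5% lower of all tested genes with LPS in cKO and 22.5% and 19.7% in WT. Of 10 other tested COMPASS-associated genes, 1 rose with LPS in cKO (Max, by 0.83) and 2 rose in WT (Max by 1.56 and Psip1 by 0.77), and 0 passed between the genotypes at either time. Of 19 other tested histone lysine methyltransferases, 2 rose and 3 fell in cKO and 1 rose and 4 fell in WT. The largest fall in both was that of Smyd3 (-1.67 in cKO and -1.91 in WT). Other JmjC genes rose in 3 of 10 in cKO and in 5 of 10 in WT, among them Riox2, by 1.89 and 1.54. PRC2 accessory genes rose in 2 of 6 in cKO and 3 of 6 in WT, with Aebp2 at 0.67 and 1.18. Of 4 tested partners of PTIP in DNA repair and at the KMT2C and KMT2D complexes, 0 passed in any of these comparisons. Pagr1a, which binds PTIP directly, lay at -2.17 to -2.15 in all 8 libraries, near the lowest value of any gene (-2.31). Overlap of its exons with other genes was not looked up, so its expression cannot be judged from these values. With limma as above, 0 genes of these lists were called between the genotypes after LPS or at 0 h. The average over times called 7.02% of all tested genes. In it 1 of the 19 other lysine methyltransferases, Smyd2, was higher in cKO by 0.67 (adjusted p = 0.0338). Of the 10 other JmjC genes 1 was, Rsbn1, by 0.997 (adjusted p = 0.0272). The lists of other COMPASS-associated genes, PRC2 accessory genes and PTIP partners had 0 calls there.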

How the data were processed

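The analysis started from the deposited rlog values, log2-scale expression that the authors made from their reads. The authors' deposited table also gives, for each comparison, a log2 fold change with its p-value and adjusted p-value. Tools listed by the submitters' processing notes are HISAT2 2.1.0, CASAVA, DESeq2 and featureCounts on GRCm38, without settings. Counts were not used here, so depth is unknown and the number of libraries limits precision. Genes whose rlog averaged 3 or more in the 8 libraries were fitted in limma 3.58.1 (R 4.3.3) with 4 group means and a variance trend, 4 residual and 4.4 prior degrees of freedom, and 7 contrasts. P-values were adjusted by Benjamini-Hochberg over the 11543 genes. The fit was tested on simulated data. Exons, lengths and neighbours came from GENCODE M21 (GRCm38), start site windows from RefSeq (GRCm38.p6), read with Python 3.11.15.

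The 53 genes, the other lists, the role groups and the rule for naming genes were chosen with earlier results of these data known. Named were Paxip1, every gene called in any contrast (with values by library for up to 3 a role group and comparison), the 4 smallest uncalled p-values between genotypes at each time, and up to 2 rises and 2 falls of other lists. Alternatives covered the filter, scaling, variance model, replicate terms, the libraries in the fit and leaving out each library.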

Additional observations from a re-analysis of the deposited data

How the results depend on the processing

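Of 42 called results on named genes (a gene in a contrast), 25 kept their call in each setting that tested them and 0 reversed. Not every setting tested every result. Paxip1 averaged over times, counted among the 25, was not in the fit with a mean rlog of at least 5. The values of 4 uncalled results changed sign in some setting (Cxxc1 and Kdm6b with LPS in WT, Kdm6b and Paxip1 with LPS in cKO). The fall of Paxip1 with LPS in WT was lost in 11 of 16 settings and the rise of Cxxc1 in cKO in 9 of 17. Counts of called histone methylation genes moved as follows. With LPS in WT the 16 calls became 10 with no filter on low values. They numbered 8 to 15 when each library was left out. With LPS in cKO the 6 calls became 11 with genotype and replicate number together as a replicate block (Kdm5b, Dot1l, Men1, Setdb1 and Kdm5c gained), and numbered 3 to 6 without single libraries. With a mean rlog of at least 5, which removes Paxip1 from the fit, 0 were called between the genotypes after LPS, at 0 h and averaged. Fitting only the groups compared gave 2 calls after LPS (Paxip1 and Setdb2) and 0 at 0 h. Leaving out libraries gave 0 to 1 after LPS, 0 to 1 at 0 h and 1 to 2 averaged. The averaged contrast had 2 calls under quantile normalization (Kmt2e added). The causes were not tested.

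Same-numbered libraries deviated together unevenly: the correlation across genes was 0.31 between cKO LPS and cKO 0 h, 0.22 between WT LPS and WT 0 h, 0.20 between cKO LPS and WT LPS and -0.04 between cKO 0 h and WT 0 h. The numbers are not shown to pair the libraries. With the replicate number as a block, calls were 9 with LPS in cKO (Kdm5b, Men1 and Kdm5c gained), 17 in WT and 19 averaged, 1 between genotypes after LPS, 1 at 0 h and 2 averaged (Kdm5b added), and 0 for the interaction. Unknown depth and 2 libraries a group limit what could be called.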

Other observations

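Other chromatin genes outside the 53 were called between the genotypes after LPS, where 3.97% of all tested genes were called. Of 14 histone acetyltransferase genes, Kat2a was higher in cKO (1.46, SE 0.20, adjusted p = 0.0156 with limma), and Hat1 (-1.27, SE 0.13, adjusted p = 0.00814) and Kat6a (-0.98, SE 0.20, adjusted p = 0.0393) were lower. Hat1, which acetylates newly made histones, rose with LPS by 1.25 in cKO and 2.42 in WT. Of 8 arginine methyltransferases Prmt3 was higher in cKO after LPS (2.27, SE 0.45), and of 14 methyl-lysine readers Atrx was lower (-0.80, SE 0.14). Among 15 deacetylase and sirtuin genes, 13 PRC1 genes, 11 acetyl-lysine readers and 5 DNA methylation enzymes, 0 passed between the genotypes after LPS. With LPS, 6 of 15 deacetylase and sirtuin genes fell in cKO and 8 of 15 in WT, led by Sirt3 (-1.98 and -1.92), against 17.5% and 19.7% of all tested genes, while Hdac1 rose by 1.34 and 1.54. Among 13 PRC1 genes 5 rose in cKO and 6 in WT, led by Pcgf5 (1.99 and 2.51), against 19.6% and 22.5% of all tested genes.

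The genes next downstream of both members with the largest LPS response also rose, a pair of places looked up after the values were seen. St3gal3, 2043 bp downstream of Kdm4a, rose by 2.11 in cKO and 2.32 in WT. Phf11c, 6628 bp downstream of Setdb2, rose by 2.11 and 2.14, and Phf11d and Phf11b farther along rose by 2.37 and 3.22 in cKO and by 2.81 and 3.57 in WT. Cab39l, which starts 88 bp from Setdb2 on the opposite strand, rose by 0.48 and 0.96. More distant genes on the same strand fell. Cdadc1, 118504 bp from Setdb2, fell by 0.85 in cKO and 0.58 in WT. Ipo13, 221958 bp from Kdm4a, fell by 0.75 in WT, with 0.09 in cKO (not called). Such neighbours are common here: where a tested gene was higher by at least 1 after LPS and its tested downstream neighbour lay within 10000 bp, the neighbour was also called higher in 43.6% of 156 pairs in cKO and 47.2% of 163 in WT, against 15.2% and 15.4% of the other pairs.

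In the authors' deposited table the adjusted p of Paxip1 between genotypes after LPS is listed as 1 beside an unadjusted p of 0.004, while Setdb2, with a larger unadjusted p of 0.0069, has 0.0909 in the same column. The adjusted values there do not follow the order of the unadjusted ones for many genes besides Paxip1, 11606 in that comparison.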
